A study of Mus musculus with 2 samples.

Results

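Glycolysis and glucose uptake genes were described in splenic regulatory T cells (Tregs) of CD25KO and CD25WT mice by single-cell RNA sequencing. The set holds 10 genes taken by symbol from the 32285 gene rows that both count matrices list. They are the glucose transporters Slc2a1 and Slc2a3, the hexokinase Hk2, the glycolytic enzymes Aldoa, Tpi1, Gapdh, Pgk1, Pgam1 and Eno1, and the lactate dehydrogenase Ldha. All 10 were found, on 11 rows, because Aldoa has a second row (ENSMUSG00000114515) that held 0 UMIs in both libraries. A cell entered if it had 500 or more genes detected and no more than 10% of its unique molecular identifiers (UMIs) from mitochondrial genes.

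The CD25KO mice had the genotype CD25FL/FL-tdTomato+/+-Foxp3eGFPCretERT2+/+, and the CD25WT mice CD25WT/WT-tdTomato+/+-Foxp3eGFPCretERT2+/+. Mice of both genotypes carried the reporter and the tamoxifen-activated Cre, and received tamoxifen intraperitoneally at 2 mg/kg over 5 days, and spleens were collected 10 days after induction. CD25 is a subunit of the receptor for interleukin-2 (IL-2) and the product of Il2ra, and the Cre is made where Foxp3 is expressed, so recombination is limited to Foxp3-expressing cells. Live cells positive for CD4, GFP and tdTomato were sorted, with a further gate on low CD25 for the CD25KO cells alone. Spleens of 2 mice were pooled into 1 library per group. Without replicates there are no tests, and the intervals describe counting error alone.

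Glycolysis breaks glucose down to pyruvate in the cytosol and yields ATP and NADH, and lactate dehydrogenase turns pyruvate into lactate while restoring NAD+. Facilitative transporters admit glucose, and hexokinase traps it in the cell by phosphorylation. In T cells the pathway is known to be raised on activation, through Myc, HIF-1 and mTOR signalling, while resting Tregs are known for relying more on mitochondrial oxidation.

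The CD25KO and CD25WT matrices held 7530 and 6620 barcodes and 36986849 and 36971834 UMIs. After filtering and removal of 104 CD25KO and 116 CD25WT cells of other lineages, 6848 CD25KO and 5994 CD25WT T cells remained, with a median of 4157 and 5250 UMIs. T cell identity was as labelled, with Cd3e at 898 CPM (UMIs scaled to a total of 1000000) in CD25KO and 663 in CD25WT, and Cd4 at 171 and 119 CPM. Foxp3 was at 21.8 CPM in CD25KO and 34.6 CPM in CD25WT. Il2ra was at 32.6 CPM in CD25KO and 126 CPM in CD25WT, a log2 ratio of -1.95, but which exons are deleted is not stated in the labels, so 3' reads need not report the deletion. The libraries shared 107 barcodes, of which 26 passed the filter in both. Ribosomal protein genes took 31.3% of the UMIs in CD25KO T cells and 39.8% in CD25WT T cells, and their part in the ratios below was not tested beyond the other scalings given.

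The promoters of Tpi1, Eno1 and Ldha are shown because these genes behaved differently from each other: Tpi1 had the highest CD25KO over CD25WT ratio of the set, Eno1 the lowest, and Ldha lay near equality. Sequences run 250 bases before to 50 after the annotated start and are credited to RefSeq (GRCm38.p6). Capitals mark ACGTG and GCGTG, the core of the element bound by HIF, and CACGTG, the E-box bound by Myc, on either strand. CACGTG contains ACGTG on both strands, so those counts overlap.
Tpi1, chr6:124814109-124814408, minus strand: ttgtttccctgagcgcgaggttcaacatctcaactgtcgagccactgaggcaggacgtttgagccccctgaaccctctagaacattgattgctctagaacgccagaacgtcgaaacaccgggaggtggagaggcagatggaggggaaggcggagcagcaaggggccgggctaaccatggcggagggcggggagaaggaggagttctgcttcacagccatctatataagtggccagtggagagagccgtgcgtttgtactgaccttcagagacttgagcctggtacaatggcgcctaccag
Eno1, chr4:150236458-150236757, plus strand: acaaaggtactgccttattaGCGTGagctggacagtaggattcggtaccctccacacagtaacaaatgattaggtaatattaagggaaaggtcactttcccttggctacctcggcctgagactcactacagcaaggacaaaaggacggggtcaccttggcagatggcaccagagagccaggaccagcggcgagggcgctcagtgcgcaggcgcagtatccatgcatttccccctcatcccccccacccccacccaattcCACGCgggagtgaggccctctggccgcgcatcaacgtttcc
Ldha, chr7:46845554-46845853, plus strand: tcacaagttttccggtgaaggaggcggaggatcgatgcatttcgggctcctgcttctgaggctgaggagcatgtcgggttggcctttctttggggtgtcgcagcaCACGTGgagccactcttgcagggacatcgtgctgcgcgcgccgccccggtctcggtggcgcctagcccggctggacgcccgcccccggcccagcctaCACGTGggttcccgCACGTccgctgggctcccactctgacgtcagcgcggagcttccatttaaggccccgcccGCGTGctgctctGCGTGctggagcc
The Ldha promoter held CACGTG at 2 places, a further ACGTG outside them on the other strand (5 ACGTG matches in all) and GCGTG at 2. The Eno1 promoter held GCGTG at 2 places and no ACGTG, and the Tpi1 promoter held no match. Of the 9 members with an entry in the promoter table (all but Slc2a3), 6 held ACGTG, 5 held GCGTG and 1 held CACGTG, where a member with several annotated starts was represented by the one nearest its gene start. The counts depend on the start used. For Aldoa it held no ACGTG, while the other starts held 1 each. The other Ldha start held no ACGTG or CACGTG. Among all 32851 promoters of the table, counted per annotated start and not per gene, 19.6% held ACGTG, 32.4% GCGTG and 7.15% CACGTG.

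Over all T cells, 7 of the 10 members were at a higher level in the CD25KO than in the CD25WT library beyond counting error (Hk2, Aldoa, Tpi1, Gapdh, Pgk1, Pgam1 and, under the plain total but not with TMM factors, Ldha), and Eno1 was lower. The share of all genes higher beyond counting error was not computed, so this count cannot be set against all genes. Of all genes, 69.9% had a higher ratio than Ldha. The median log2 ratio of the members was 0.42, against 0.21 over the 7126 genes whose mean level was 10 CPM or more, and 6 members lay above that all-gene median. Tpi1, Pgam1 and Hk2, which is under the 10 CPM minimum, lay past 1.5-fold upward, 3 members in all, and 0 members lay past it downward. Among all genes, 10.6% lay 1.5-fold or more above and 1.46% lay 1.5-fold or more below their CD25WT level. Together the members took 0.213% of CD25KO and 0.169% of CD25WT T cell UMIs.

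Under the plain total the transporters lay near equality, but with TMM factors Slc2a1 was at -0.27 and Slc2a3 at -0.15, and with thinned cells Slc2a3 was at 0.40. Slc2a1, which encodes the widely expressed transporter GLUT1 and lies at chr4:119108711-119137983 on the plus strand (mm10), had 367 UMIs (10.4 CPM) in CD25KO and 370 UMIs (10.6 CPM) in CD25WT. Its log2 ratio was -0.03, with a 95% interval of -0.24 to 0.18. Slc2a3, which encodes the high-affinity transporter GLUT3 (chr6:122727809-122801640, minus strand), had 673 UMIs (19.1 CPM) in CD25KO and 627 UMIs (18.0 CPM) in CD25WT, a log2 ratio of 0.09 (-0.07 to 0.25). Neither interval excluded 0. Hk2, which encodes the inducible hexokinase II (chr6:82725025-82774454, minus strand), had few UMIs, 151 (4.29 CPM) in CD25KO and 93 (2.67 CPM) in CD25WT. Its log2 ratio was 0.68 (0.30 to 1.07).

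The enzymes of the middle of the pathway were all higher in CD25KO under the plain total, where the all-gene median was 0.21. Of all genes, 25.9% had a higher ratio than Pgk1, 15.3% than Aldoa, 12.3% than Gapdh and 9.50% than Pgam1. With TMM factors the log2 ratios were 0.12 for Pgk1, 0.24 for Aldoa, 0.30 for Gapdh, 0.39 for Pgam1 and 0.78 for Tpi1. Aldoa, the aldolase that splits the 6-carbon sugar, lies at chr7:126795234-126800751 (minus strand) and was at 301 CPM in CD25KO and 216 CPM in CD25WT, a log2 ratio of 0.48 (0.44 to 0.52). Tpi1, the isomerase that interconverts the products of aldolase, lies at chr6:124810586-124814296 (minus strand) and had 2179 UMIs (61.9 CPM) in CD25KO and 1064 UMIs (30.6 CPM) in CD25WT. That is a fold of 2.02 and a log2 ratio of 1.02 (0.91 to 1.13), and 3.51% of all genes had a higher ratio. Gapdh, which makes NADH (chr6:125161715-125166467, minus strand), was at 986 CPM in CD25KO and 679 CPM in CD25WT, a log2 ratio of 0.54 (0.51 to 0.56). Pgk1, the first enzyme of the pathway to yield ATP (chrX:106187100-106203699, plus strand), was at 146 CPM in CD25KO and 113 CPM in CD25WT, with a log2 ratio of 0.36 (0.30 to 0.42). Pgam1, which moves the phosphate of 3-phosphoglycerate (chr19:41911923-41918660, plus strand), was at 96.4 CPM in CD25KO and 62.5 CPM in CD25WT, with a log2 ratio of 0.62 (0.55 to 0.70).

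Eno1 and Ldha differed from the enzymes before them. Eno1, the enolase that makes phosphoenolpyruvate (chr4:150236721-150248879, plus strand), had 5930 UMIs (168 CPM) in CD25KO and 8395 UMIs (241 CPM) in CD25WT. Its log2 ratio was -0.52 (-0.57 to -0.47), and 1.89% of all genes had a lower one. Ldha (chr7:46841475-46855627, plus strand) was at 338 CPM in CD25KO and 315 CPM in CD25WT, a log2 ratio of 0.10 (0.06 to 0.14). The direction for Ldha depended on the scaling, since with TMM factors, which shift every ratio by -0.24, it was -0.14. With TMM factors 5.52% of all genes lay past 1.5-fold upward and 3.61% downward (5.56% and 3.58% with median-of-ratios factors). Tpi1 (0.78) was then the 1 member past the fold upward and Eno1 (-0.76) the 1 downward. Near-identical gene copies can take or lend reads: within the last 400 bases, copies with at least 95% identity over at least 100 bases numbered 109 for Gapdh, 6 for Ldha, 4 for Eno1, 2 for Aldoa and 1 for Tpi1. Eno1b, a copy identical to the end of Eno1, was counted separately at 3.21 CPM in CD25KO and 2.50 CPM in CD25WT. The pseudogene Gm4735 was also identical there and had no row in the count matrices. With the copies that had a row added to their members, the log2 ratio was -0.505 for Eno1 and 0.539 for Gapdh. Copies without a row could not be added. How many Eno1 reads were lost or gained through those was not tested.

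**Figure D1:**
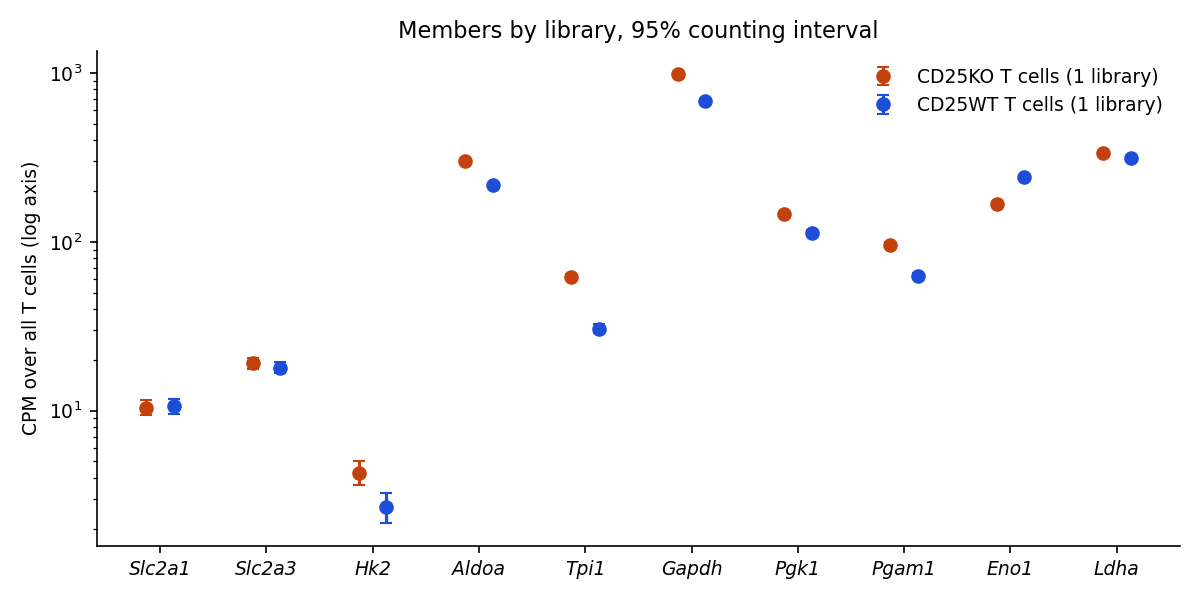
Level of each member over all T cells in CPM on a log axis, with CD25KO left of CD25WT and bars for the 95% counting interval, 1 library each. Tpi1 stood at 61.9 CPM in CD25KO and 30.6 CPM in CD25WT, while Eno1 stood at 168 CPM in CD25KO and 241 CPM in CD25WT.

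The libraries differed in which Treg states they held. States were rebuilt by clustering both libraries together without the genes of the pathway or Il2ra among the features, and were named "-like" from marker lists, so they may differ from names the study would give. Effector Treg-like cells made up 22.8% of CD25KO and 2.50% of CD25WT T cells, follicular regulatory T-like cells 13.7% and 5.79%, recently stimulated-like cells 11.2% and 7.44%, and cycling-like cells 3.18% and 1.12%. Central Treg-like cells made up 6.10% of CD25KO and 38.8% of CD25WT T cells, and IL-2 responsive Treg-like cells 0.789% and 10.7%. The CD25-low gate applied to the CD25KO cells alone can set such shares, and gate and genotype cannot be told apart. Interferon-response-like cells made up 1.84% of CD25KO and 3.85% of CD25WT T cells. The remaining T cells fell in 4 unnamed clusters, each called here by a pair of its leading genes. The pairs are Naip5 and Capn3, S100a4 and Ccr2, Gbp2 and Iigp1, and Tmem176a and Tmem176b. The first gene of the S100a4 and Ccr2 cluster was Nebl, and S100a4 and Ccr2 also led part of the effector Treg-like cells, so they do not set it apart.

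The members' summed level followed the states in a like order in both libraries; Gapdh alone gave 986 of 2131 CPM over all CD25KO T cells and 679 of 1689 CPM over all CD25WT T cells. In CD25KO it was 3628 CPM in cycling-like, 2403 in recently stimulated-like, 2387 in follicular regulatory T-like, 2189 in effector Treg-like and 1256 in central Treg-like cells. In CD25WT it was 2474 CPM in recently stimulated-like, 2402 in follicular regulatory T-like, 2172 in effector Treg-like and 1379 in central Treg-like cells, and 3310 in the 67 cycling-like cells. The activated and dividing states thus held more of these transcripts per UMI than the central one in each library. After thinning every cell to 2000 UMIs, which left out 349 CD25KO and 59 CD25WT cells, a cell held a mean of 3.69 member UMIs in CD25KO and 3.19 in CD25WT, with a median of 3 in both.

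Cycling-like cells had the highest levels of most enzymes. Gapdh reached 1849 CPM in CD25KO and 1715 CPM in CD25WT cycling-like cells, against 501 and 483 CPM in central Treg-like cells. Ldha reached 597 CPM in CD25KO and 498 CPM in CD25WT cycling-like cells, and was lowest in the Naip5 and Capn3 cluster at 164 and 170 CPM. Over the other T cells of the same library, the median log2 ratio of the members in cycling-like cells was 0.83 in CD25KO and 0.66 in CD25WT, against -0.12 and 0.09 over all genes. Slc2a3 was lower there, at -1.19 in CD25KO and -0.79 in CD25WT. Slc2a1 was at -0.41 in CD25KO and -0.92 in CD25WT, both within counting error. Cycling-like cells had a median of 14703 UMIs in CD25KO and 18142 in CD25WT. Removing the cells of highest doublet score gave medians of 0.80 in CD25KO and 0.65 in CD25WT. That removal left 211 of the 218 CD25KO and all 67 CD25WT cycling-like cells, and the scores came from a caller taken to have failed. It could therefore not show the part of doublets in these levels, which was not tested.

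Hk2 and Slc2a3 each peaked in another state. Hk2 was at 18.2 CPM in CD25KO and 11.995 CPM in CD25WT recently stimulated-like cells, which held 82 of its 151 UMIs in CD25KO and 39 of its 93 UMIs in CD25WT. In CD25KO central Treg-like cells Hk2 had 0 UMIs, with a counting interval up to 2.05 CPM (3 UMIs would be 1.66 CPM), and it was at 1.45 CPM in CD25WT central Treg-like cells. Slc2a3 was at 39.8 CPM in CD25KO and 35.9 CPM in CD25WT effector Treg-like cells, from 284 and 25 UMIs. In CD25WT that level (interval 23.2 to 53.0 CPM) overlapped the next, 25.5 CPM in the Naip5 and Capn3 cluster (19.7 to 32.4 CPM). Only in CD25KO did the peak of Slc2a3 stand apart from the next state. Slc2a3 was at 9.77 CPM in CD25KO and 8.92 CPM in CD25WT recently stimulated-like cells. Slc2a1 was highest in effector Treg-like cells, at 14.9 CPM in CD25KO and 15.8 CPM in CD25WT, but no neighbouring states in its order stood apart beyond their counting intervals in either library.

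Among the members with more than 3 UMIs in every state, Tpi1 varied most across states. Its highest level was 9.60 times its lowest in CD25KO and 5.49 times in CD25WT, over states of at least 100 cells. Cycling-like cells, the highest state in CD25KO, numbered 67 in CD25WT and were left out there. The ranges given here thus cover different states in each library. The lowest CD25KO level, 14.4 CPM in interferon-response-like cells, rested on 8 UMIs (interval 6.24 to 28.5 CPM). It was at 139 CPM in CD25KO and 112 CPM in CD25WT cycling-like cells, at 106 and 78.0 CPM in follicular regulatory T-like cells, at 90.8 and 73.5 CPM in recently stimulated-like cells, and at 14.98 and 16.00 CPM in central Treg-like cells. Aldoa was highest in follicular regulatory T-like cells, at 406 CPM in CD25KO and 395 CPM in CD25WT. Eno1 ranged from 108 to 268 CPM over the CD25KO states of at least 100 cells and from 180 to 275 CPM over the CD25WT ones.

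**Figure D2:**
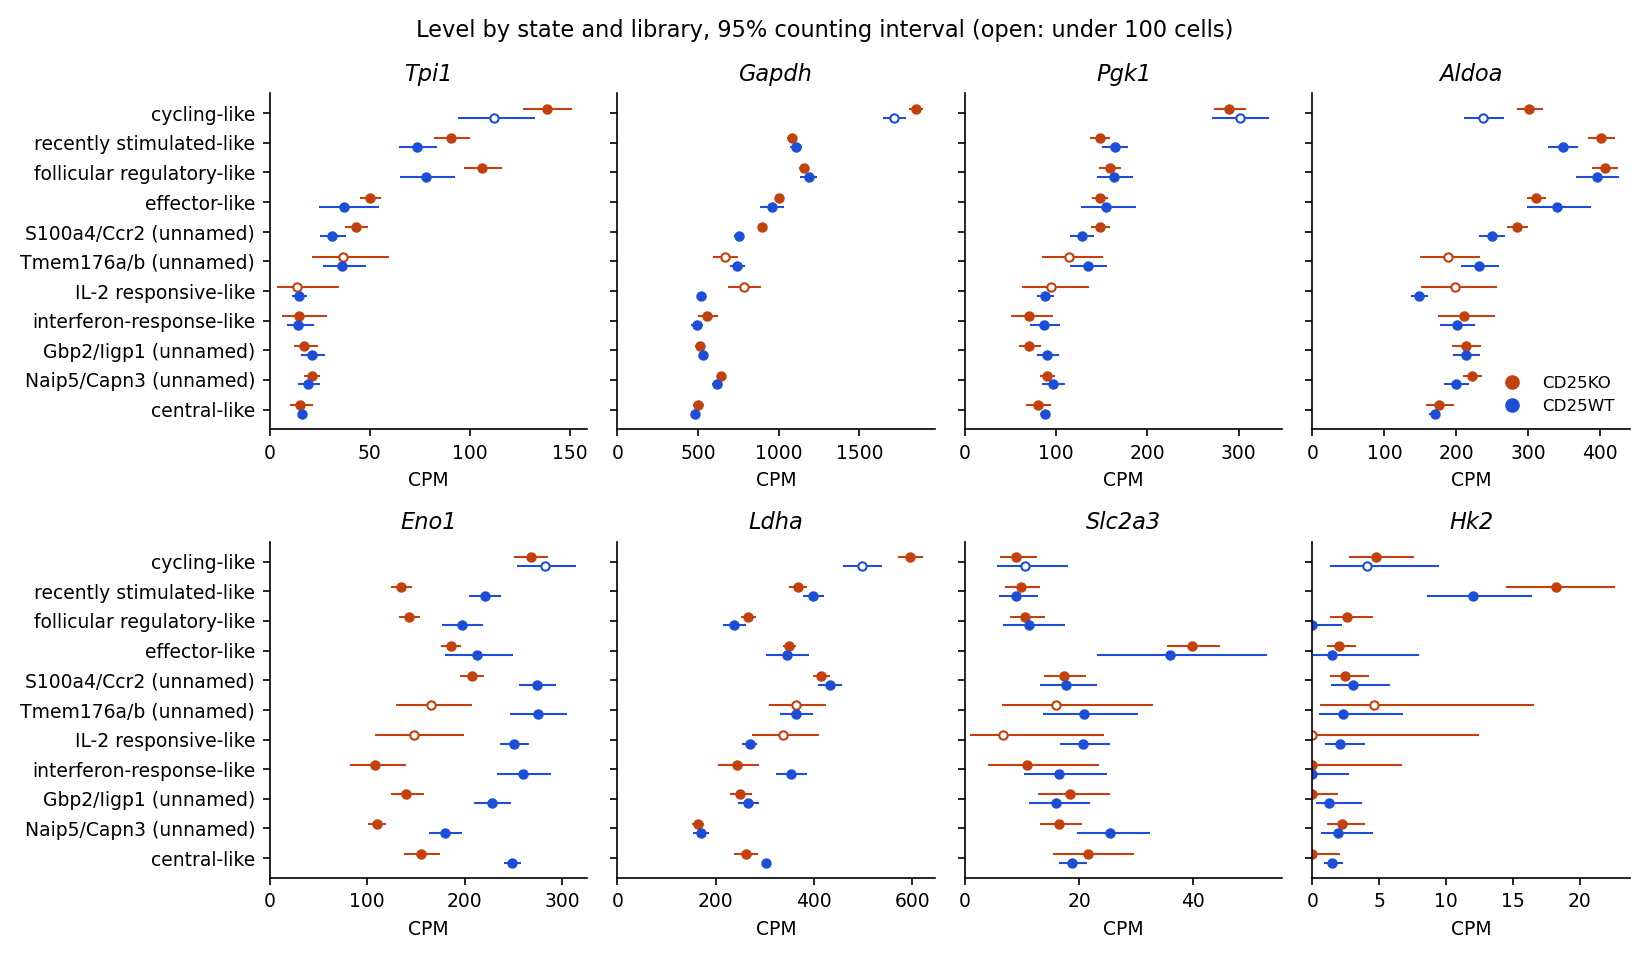
Level in CPM of 8 members in each T cell state, with CD25KO above CD25WT, bars for the 95% counting interval and open points for states of under 100 cells. Tpi1, Gapdh and Pgk1 stand higher in cycling-like than in central Treg-like cells in both libraries, without falling at every step of the list. Hk2 stands out in recently stimulated-like cells at 18.2 CPM in CD25KO and 11.995 CPM in CD25WT. The Eno1 point lies lower in CD25KO in every state, within counting error in cycling-like and effector Treg-like cells.

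Within states, Eno1 was the member that was lower in CD25KO most often beyond counting error. Of the 8 states with at least 100 cells in both libraries, Eno1 was lower in CD25KO in all 8, and its counting interval lay below 0 in 7. In central Treg-like cells Eno1 was at 155 CPM in CD25KO and 249 CPM in CD25WT, a log2 ratio of -0.68 (-0.87 to -0.51). In recently stimulated-like cells it was at 135 CPM in CD25KO and 220 CPM in CD25WT, a log2 ratio of -0.71 (-0.86 to -0.55). The ratio was furthest from 0 in interferon-response-like cells, at -1.26, and nearest in effector Treg-like cells, at -0.20 (-0.44 to 0.06). Eno1 was past 1.5-fold downward in 5 states, and the share of all genes past it was 2.29% in central Treg-like, 8.05% in interferon-response-like and 1.94% in recently stimulated-like cells, 2.08% in the Naip5 and Capn3 cluster and 2.53% in the Gbp2 and Iigp1 cluster. In the other 3 that share was 3.32% for follicular regulatory T-like cells, 6.17% for effector Treg-like cells and 2.22% for the S100a4 and Ccr2 cluster. Slc2a3 also passed that fold downward in the Naip5 and Capn3 cluster (-0.63) and in interferon-response-like cells, where it had 6 UMIs in CD25KO and 22 in CD25WT. Past 1.5-fold upward were Pgam1 in interferon-response-like cells, at 57.8 CPM in CD25KO and 35.1 CPM in CD25WT (0.72, interval 0.02 to 1.40), and Hk2 in recently stimulated-like cells (0.60, interval 0.03 to 1.19). Of all genes 22.3% and 7.54% were past that fold upward in those states. In the cycling-like cells Eno1 was at 268 CPM in CD25KO and 283 CPM in CD25WT.

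Tpi1 was higher in CD25KO beyond counting error within 3 of the 8 states: 0.44 in follicular regulatory T-like cells (0.16 to 0.73), 0.30 in recently stimulated-like cells (0.07 to 0.54) and 0.48 in the S100a4 and Ccr2 cluster (0.12 to 0.85). Aldoa was also above 0 beyond counting error in 3 states, at 0.21 in recently stimulated-like cells, 0.16 in the Naip5 and Capn3 cluster and 0.19 in the S100a4 and Ccr2 cluster. In the last of these Pgam1 was at 0.42 (0.19 to 0.66), Gapdh at 0.25 and Pgk1 at 0.21, so that 5 members had intervals above 0 there. Ldha had intervals below 0 in 3 states, the furthest in interferon-response-like cells at -0.54. Here and for Eno1 above, the share of all genes whose interval excluded 0 was not computed. These counts by interval thus cannot be set against all genes, and members with many UMIs pass at small ratios. Slc2a1 was below 0 in all 8 states, but no interval excluded 0. The summed level of the members differed by a log2 ratio of between -0.20 and 0.10 within the 8 states. The sum was below 0 beyond counting error in central Treg-like (-0.13), interferon-response-like (-0.20), recently stimulated-like (-0.04) and Gbp2 and Iigp1 cluster cells (-0.16). All-gene medians in these states were 0.10, 0.17, 0.11 and 0.14. In the S100a4 and Ccr2 cluster the sum was above 0 (0.10, all-gene median 0.06), and in the other states it was within counting error.

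**Figure D3:**
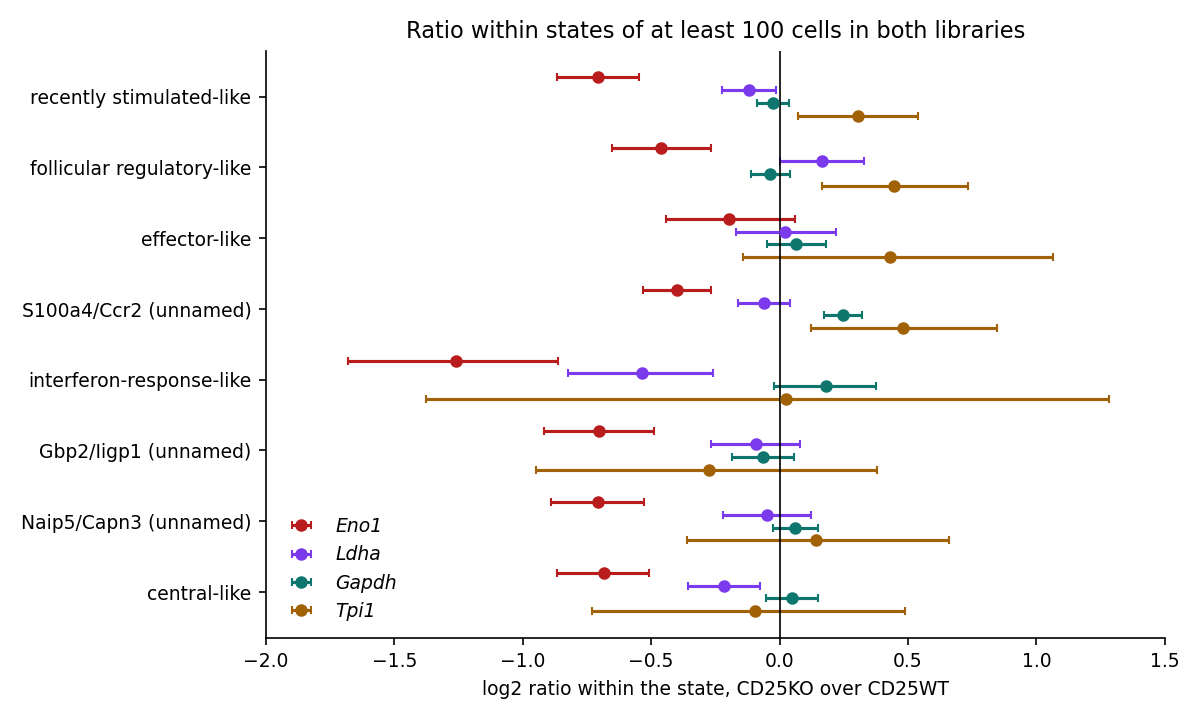
Log2 ratio of CD25KO over CD25WT within each of the 8 states with at least 100 cells in both libraries, for Eno1, Ldha, Gapdh and Tpi1, with 95% counting intervals. Eno1 lies below 0 in all 8 states, from -1.26 to -0.20, while Gapdh lies close to 0 in most.

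With the 8 states of at least 100 cells in both libraries weighted alike, most members' ratios lay near 0. Left out were cycling-like cells, IL-2 responsive Treg-like cells and the Tmem176a and Tmem176b cluster, each with under 100 cells in a library. Profiles were weighted by share of cells, while the ratios over all T cells summed UMIs. The weighted and plain ratios thus also differ in the cells and the weighting used. With each library's state profiles weighted by the CD25WT state shares, which covered 94.7% of CD25KO and 84.4% of CD25WT T cells, the median log2 ratio of the members was -0.01, against 0.09 over all genes. Of the members, 0 lay past 1.5-fold upward (2.8% of all genes) and 1 downward, Eno1 at -0.64 (0.737% of all genes). Tpi1 was at 0.22, Pgam1 at 0.11, Aldoa at 0.09, Gapdh at 0.05, Slc2a3 at 0.03 and Hk2 at -0.05. Pgk1 was at -0.09, Ldha at -0.14 and Slc2a1 at -0.32. Conversely, the CD25WT profiles reweighted to the CD25KO shares gave a shift of 0.50 for Tpi1, 0.39 for Pgam1, 0.37 for Gapdh and 0.35 for Aldoa, but -0.11 for Eno1 and -0.01 for Ldha. This weighting is a description of 2 libraries, and states made from expression are not independent of it.

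**Figure D4:**
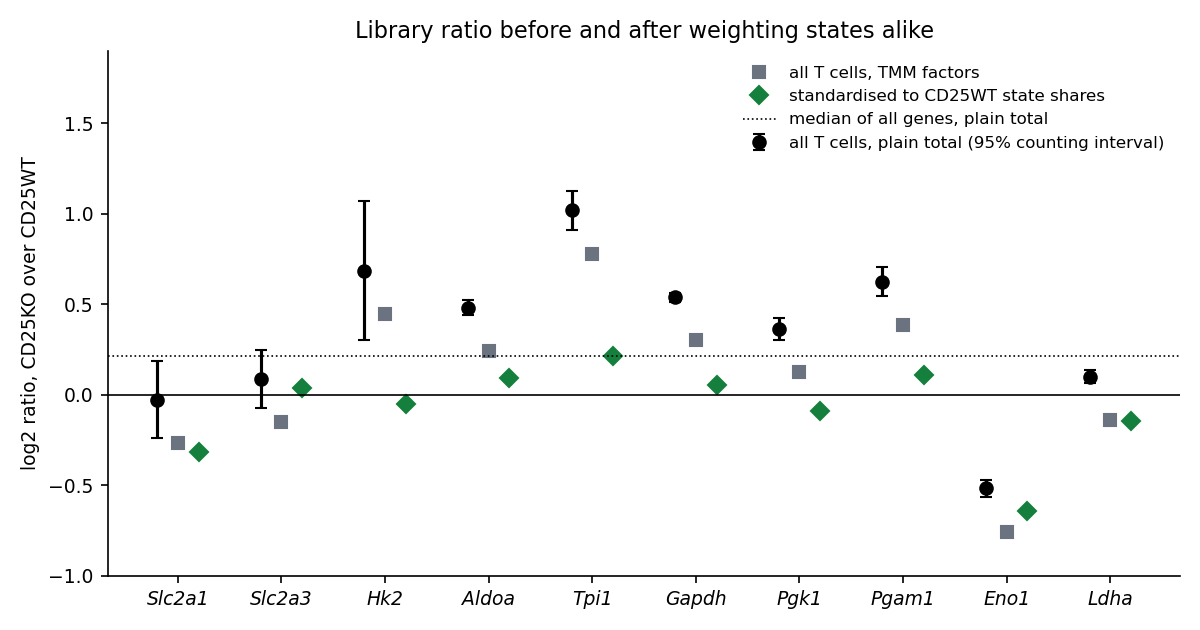
Log2 ratio of CD25KO over CD25WT for each member over all T cells with the plain total (circles, 95% counting interval) and with TMM factors (squares). Diamonds show the ratio after weighting states by their CD25WT shares, over the 8 states with at least 100 cells in both libraries. Tpi1 stands at 1.02, 0.78 and 0.22 on the 3 measures, and Eno1 at -0.52, -0.76 and -0.64.

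Across the 19 points of state by library with at least 100 cells, which share libraries and depth, the members did not vary as 1 block. Aldoa, Tpi1, Gapdh, Pgk1 and Pgam1, grouped after their values were seen, were correlated in pairs with Pearson's r between 0.77 and 0.97 on log2(CPM + 10). Against these 5 enzymes r ranged from -0.13 to 0.34 for Eno1, from 0.34 to 0.66 for Ldha, from 0.49 to 0.63 for Hk2, from 0.21 to 0.36 for Slc2a1 and from -0.47 to -0.23 for Slc2a3. Without the cycling-like point the range within the 5 was 0.86 to 0.96. Outside the pathway lists, the 6 of 4833 genes most like the members' mean over these points were Tomm6 (r = 0.969), Ndufa4 (0.969), Polr2k (0.957), Atp5d (0.955), Ndufs5 (0.954) and Prdx1 (0.953).

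Other genes of the pathway were taken from lists chosen with results known. Of 25 other glycolysis enzymes, 9 reached a mean of 10 CPM, with a median log2 ratio of 0.32, and 0 were past 1.5-fold in either direction. Pfkp, a phosphofructokinase subunit, was at 56.0 CPM in CD25KO and 40.4 CPM in CD25WT (0.47), and Hk1, the constitutive hexokinase, at 45.5 and 33.8 CPM (0.43). Bpgm, which makes 2,3-bisphosphoglycerate, was at 0.47 and Adpgk, an ADP-dependent glucokinase, at -0.54. Of 17 other glucose and lactate transporters and partners 1 was counted, Bsg, which chaperones lactate transporters, at 146 CPM in CD25KO and 119 CPM in CD25WT (0.30). Of 10 pentose phosphate genes 9 were counted, with a median of 0.08 and 0 past 1.5-fold, Rpia at 0.53 and G6pdx at 0.44 being the furthest from 0. Of 14 genes for the entry of pyruvate into mitochondria 8 were counted, with a median of 0.04. Pdk1, a kinase that holds back pyruvate dehydrogenase, was at 36.3 CPM in CD25KO and 59.5 CPM in CD25WT (-0.71, but 0.19 after weighting states alike), and Pdk3 was at 0.63.

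Among 34 regulators of the pathway, 28 were counted, with a median log2 ratio of 0.17, against 0.21 over all genes, and 3 lay past 1.5-fold in each direction, where 10.6% of all genes lay past it upward and 1.46% downward. Myc, a transcription factor that drives glycolytic genes, was at 14.97 CPM in CD25KO and 39.9 CPM in CD25WT (-1.42, and -1.06 after weighting states alike). Ddit4, an inhibitor of mTOR signalling, was at 107 CPM in CD25KO and 229 CPM in CD25WT (-1.10 and -0.84). Txnip, which restrains glucose uptake, was at 218 CPM in CD25KO and 407 CPM in CD25WT (-0.90 and -0.58). Akt1 was at 29.4 CPM in CD25KO and 16.8 CPM in CD25WT (0.81 and 0.32), and Hif1a, the oxygen-regulated subunit of HIF-1, at 200 and 120 CPM (0.74, and 0.12 after weighting). Of 23 HIF-responsive genes outside glycolysis 12 were counted, with a median of 0.29 (0.05 with TMM factors and 0.13 after weighting states alike) and 2 past 1.5-fold in each direction. Downward these were Ddit4 and Pdk1, given above, and upward Bhlhe40 at 56.0 CPM in CD25KO and 11.7 CPM in CD25WT (2.26) and Rora at 86.1 and 30.02 CPM (1.52).

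Markers of other cell types and of handling also differed between the libraries, and their part in the results was not tested. Summed B cell markers were at 538 CPM in CD25KO and 269 CPM in CD25WT, CD8 T cell markers at 158 and 47.8 CPM, myeloid markers at 148 and 108 CPM, and NK cell markers at 15.1 and 7.38 CPM. Of these lists, Ighm alone gave 387 and 222 CPM, Nkg7 139 and 32.4 CPM and Cst3 141 and 104 CPM, while S100a9 and Klra8 had 0 UMIs in the T cells of both libraries. Erythroid markers were at 113 CPM in CD25KO and 203 CPM in CD25WT, and platelet markers at 0.568 and 0.115 CPM. Of 15 genes known to respond to dissociation 11 were counted, with a median of -0.07, Jun at 13.4 CPM in CD25KO and 44.5 CPM in CD25WT being furthest from 0.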

How the data were processed

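The authors deposited raw UMI counts for each barcode and gene from 10x Chromium 3' libraries, and per the file headers the software was Cell Ranger 6.0.0. The build is mm10 per the submitters' processing notes, and no label or header names the annotation behind the counts. Gene positions came from GENCODE mouse release 21 on that build. The members, lists and naming thresholds were chosen with earlier results of these data known.

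The cell filter asked for 500 or more genes and no more than 10% mitochondrial UMIs. Failing barcodes numbered 578 in CD25KO and 510 in CD25WT. Both libraries were clustered jointly with Scanpy 1.11.5 (2000 variable genes, 30 components, 15 neighbours, leidenalg 0.10.2 at resolution 1). A state was named from markers with a mean log2 fold of at least 0.25, at least 3 of them detected, and markers among its leading genes. Scrublet called 1 doublet in CD25KO and 0 in CD25WT, which was taken as a failure of the caller, so doublets remain.

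UMIs were summed per library or state and scaled to CPM with all genes in the total. Sums have exact Poisson intervals and ratios exact conditional intervals, at 95%. A fold of 1.5 was applied to genes whose mean reached 10 CPM. Beside all members, up to 4 genes of each other list with the largest ratio were to be named, and genes beyond that were chosen after their values were seen. Ratio and weighting steps were tested on simulated data. Alternatives were TMM factors (edgeR 4.0.16), median-of-ratios factors (DESeq2 1.42.0), other totals, cell weights, cell filters and clusterings.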

Additional observations from a re-analysis of the deposited data

Results flagged for a closer look

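A pair of members differed between the libraries in opposite directions in different states, each beyond counting error. Pgk1 had a log2 ratio of CD25KO over CD25WT of 0.21 in the unnamed S100a4 and Ccr2 cluster and of -0.35 in the unnamed Gbp2 and Iigp1 cluster. Ldha had a ratio of 0.16 in follicular regulatory T-like cells, with an interval whose lower end touched 0, and of -0.54 in interferon-response-like cells. The differences between states were not tested, since each state is 1 sample per group.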

How the results depend on the processing

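The members' median log2 ratio over all T cells, 0.42, was 0.18 with TMM factors, 0.19 with median-of-ratios factors, 0.22 with ribosomal protein and mitochondrial genes taken out of the total, 0.33 with each cell weighted the same, 0.51 with a stricter cell filter (at least 1000 genes, at most 5% mitochondrial), 0.54 in cells with a Foxp3 UMI (686 CD25KO and 964 CD25WT cells), 0.32 without the CD25WT cells holding an Il2ra UMI and 0.36 without Hk2, the 1 member under 10 CPM. It stayed above 0 in all of these. The count of members at least 1.5-fold higher, 3, became 1 under the first 3 of these settings and 5 in cells with a Foxp3 UMI. It was 2 with equal cell weights, with thinned cells, without cycling-like cells, without the CD25WT cells holding an Il2ra UMI and without Hk2. The count at least 1.5-fold lower, 0, became 1 under those 3 scalings, with equal cell weights, with thinned cells and without cycling-like cells. Of all genes, 5.52% lay past the fold upward and 3.61% downward with TMM factors, and 5.56% and 3.58% with median-of-ratios factors. For the other changes of cells or totals no such share was computed, so those counts cannot be set against all genes. The all-gene median was 0.25 in cells with a Foxp3 UMI, against 0.21 over all T cells. Ldha, at 0.10, was -0.14 (TMM), -0.13 (median of ratios), -0.10 (no ribosomal or mitochondrial genes), -0.072 (equal weights), -0.054 (thinned) and -0.000344 (no cycling-like cells). The median after weighting states alike, -0.01, was -0.11 with 15 components, -0.078 with all 11 states and -0.11 with TMM factors. TMM factors shift every weighted ratio by -0.099. The cause of the changes with other cells, weights or clusterings was not tested. At resolution 0.5 no cycling-like cluster was found, so that setting gives no cycling value. Leaving out shared barcodes, using all 11 states and removing cells of highest doublet score from the cycling-like comparison were chosen after seeing the data. No paired analysis was possible because each group is 1 library. Hk2, with 151 and 93 UMIs, is limited most by depth.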

Other observations

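Within each library, T cells with an Il2ra UMI were set beside those without one, a split that also follows depth (in CD25WT a median of 6110 UMIs with and 4828 without). In CD25KO, Eno1 was at 168 CPM in the 823 cells with an Il2ra UMI and 169 CPM in the 6025 without, the log2 ratio of cells with over cells without was -0.17 for Aldoa, and Gapdh (0.10, interval 0.06 to 0.15) and Pgk1 (0.22, interval 0.11 to 0.32) were higher with an Il2ra UMI. In CD25WT, Eno1 was at 256 CPM in the 2103 cells with an Il2ra UMI and 231 CPM in the 3891 without (log2 ratio 0.14, interval 0.08 to 0.21), while Aldoa was at -0.33, Tpi1 at -0.21, Pgk1 at -0.19 and Gapdh at -0.18. Within CD25WT central Treg-like cells Eno1 was at 0.16 (0.06 to 0.26) and Aldoa at -0.18 (-0.31 to -0.06), while Tpi1 was at 0.28 and Gapdh at 0.05, both within counting error. Myc was higher in cells with an Il2ra UMI in both libraries, at 30.6 against 12.4 CPM in CD25KO and 63.8 against 23.5 CPM in CD25WT. Hk2 was at 6.45 against 3.94 CPM in CD25KO and 3.88 against 1.84 CPM in CD25WT.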
